A study of Mus musculus with 23 samples.

Results

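The genes described here are the proteasome genes of mouse liver, taken as every gene in the authors' estimated count table whose symbol begins with Psma, Psmb, Psmc, Psmd, Psme, Psmf or Psmg and a number. That rule found 50 of 24440 genes, and the immunoproteasome subunits among them are Psmb8, Psmb9 and Psmb10. The proteasome is the barrel-shaped protease that degrades proteins tagged with ubiquitin. Its core particle is a stack of rings of alpha and beta subunits, of which Psmb5, Psmb6 and Psmb7 carry the active sites, and its regulatory particle holds a ring of ATPases that unfold substrates and a lid and base that bind and remove ubiquitin. In cells exposed to interferon-gamma, and constitutively in many leukocytes, newly built core particles take up Psmb8, Psmb9 and Psmb10 in place of Psmb5, Psmb6 and Psmb7, which changes the peptides produced for presentation on MHC class I. Hepatocytes hold mainly the constitutive form.

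The 23 RNA-seq libraries came from perfused livers of male mice on a C57Bl6 background, obtained at 6 to 8 weeks of age and kept for 15 weeks on normal chow or on a high-fat diet with 60% of its energy from fat. The groups were IL-10/IL-4 double knockout on the high-fat diet (dKO_HFD, 4 mice) and on chow (dKO_chow, 4 mice), IL-4 knockout on the high-fat diet (IL4KO_HFD, 3 mice) and on chow (IL4KO_chow, 4 mice), and wild type on the high-fat diet (WT_HFD, 4 mice) and on chow (WT_chow, 4 mice). The double knockout and the IL-4 knockout share the loss of IL-4, and the labels give neither the alleles nor whether mice were littermates. The series title gives NAFLD, non-alcoholic fatty liver disease, as the subject, and the comparisons set genotypes and diets against each other.

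The targeted genes were read first. Il10, which encodes an anti-inflammatory cytokine, had 6 to 21 counts in libraries labelled dKO_HFD and 41 to 67 in libraries labelled dKO_chow, against 0 in IL4KO_HFD, 0 to 2 in IL4KO_chow, 0 to 4 in WT_HFD and 0 to 2 in WT_chow libraries. This goes against the direction of the double knockout label, and gene counts do not show from which part of Il10 the reads came, so the groups are called dKO here only as libraries labelled so. Il4 had at most 3 counts in any library of the 23, wild type included, which checks little. Library totals ran from 7114454 counts in IL4KO_chow replicate 3 to 30205070 in dKO_chow replicate 2. On the first principal component of all tested genes, which held 39% of the variance, dKO_HFD replicate 4 lay at 43.1, against -17.2 to -10.2 for the other dKO_HFD libraries and 64.6 to 74.8 for dKO_chow libraries. IL4KO_HFD replicates 2 and 3 had the lowest correlation within a group, 0.9504. The hepatocyte gene Alb averaged 66393 ± 4910 CPM (the count of a gene scaled to the size of its library) in dKO_chow and 84282 ± 3035 CPM in WT_chow (SD, n = 4 each). In bulk liver, fewer cells of a type and less RNA per cell cannot be told apart.

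Of the 50 genes, 48 passed the filter on low counts. Psmb11, a core subunit known from thymus epithelium, had 0 counts in every library. Psmc3ip, whose symbol meets the rule although its product is a recombination factor and no proteasome subunit, had 0 to 16 counts and was not tested either. The 48 tested genes comprised 31 constitutive subunits (7 alpha, 7 beta, 6 ATPases and 11 other regulatory particle subunits), 3 immunoproteasome subunits, 5 activator genes, the inhibitor gene Psmf1, 7 assembly chaperones and Psma8, an alpha subunit known from testis, which stayed between 0.181 and 1.49 CPM.

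Levels between genes can be compared only per length. The scale here is CPM per kilobase of the principal transcript, the longest where several shared the best rank. On that scale Psmb6 averaged 94.8 ± 6.79 in dKO_chow and 118 ± 6.06 in WT_chow, and Psma7 averaged 91.4 ± 5.1 in dKO_chow and 115 ± 8.02 in WT_chow (SD, n = 4 each), the highest levels among the constitutive subunits. Psmb8 averaged 27.2 ± 1.69 CPM per kilobase in dKO_chow and 17.4 ± 3.82 in WT_chow, Psmb10 averaged 26.9 ± 2.81 in dKO_chow and 20.6 ± 4.1 in WT_chow, and Psmb9 averaged 10.2 ± 1.41 in dKO_chow and 8.33 ± 1.87 in WT_chow. Each immunoproteasome level was therefore below that of its constitutive counterpart on this scale, Psmb5 at 39.9 ± 2.27 in dKO_chow and 53.9 ± 3.04 in WT_chow, Psmb6 as above, and Psmb7 at 65.0 ± 4.53 in dKO_chow and 90.3 ± 2.83 in WT_chow. Although core particles hold their subunits in equal number, the lowest constitutive core subunits in WT_chow on this scale were Psma5 and Psma3, followed by Psmb3. Psma5 averaged 4.81 ± 0.106 in dKO_chow and 6.08 ± 0.316 in WT_chow, Psma3 averaged 4.34 ± 0.324 in dKO_chow and 6.22 ± 0.402 in WT_chow, and Psmb3 averaged 8.38 ± 1.7 in dKO_chow and 12.4 ± 1.54 in WT_chow. Psma3 was taken at 2846 bases and Psma7 at 914 bases. Whether other transcript lengths would change the order of genes on this scale was not tested. Whether reads of these genes were lost to other gene models in the authors' counting was not tested either.

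The promoters of the catalytic subunits that replace each other, and of the activator subunit Psme1, are shown because the results below set these genes against each other. The windows come from RefSeq on build GRCm38.p6, hold 250 bases before and 50 bases from the start site, run 5′ to 3′ on the gene's strand, and were found for 42 of the 50 genes (Psmb7 had none in the table). Capitals mark the motif named beside each sequence, searched on both strands. Psmb8 (chr17:34197945-34198244, plus strand) holds a gamma-activated site (TTCNNNGAA), an interferon-gamma response element, with its first base at -97 from the start site.
Psmb8: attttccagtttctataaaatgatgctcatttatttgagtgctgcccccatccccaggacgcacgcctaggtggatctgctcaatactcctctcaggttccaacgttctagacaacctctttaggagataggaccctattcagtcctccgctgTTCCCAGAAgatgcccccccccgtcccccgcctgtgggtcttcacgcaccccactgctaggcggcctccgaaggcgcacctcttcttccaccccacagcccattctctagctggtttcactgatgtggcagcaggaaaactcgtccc
Psme1 (chr14:55578244-55578543, plus strand) holds an interferon-stimulated response element (GAAA, 2 bases of any kind, GAAA, here on the reverse strand) that starts 9 bases after the start site.
Psme1: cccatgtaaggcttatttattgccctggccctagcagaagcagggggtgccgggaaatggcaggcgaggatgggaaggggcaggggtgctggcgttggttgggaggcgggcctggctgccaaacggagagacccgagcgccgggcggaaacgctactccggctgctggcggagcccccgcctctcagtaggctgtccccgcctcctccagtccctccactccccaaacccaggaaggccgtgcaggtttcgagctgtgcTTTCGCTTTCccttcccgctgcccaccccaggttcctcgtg
Psmb9 (chr17:34187281-34187580, minus strand) and Psmb10 (chr8:105938343-105938642, minus strand) hold none of the 3 motifs marked in capitals, which says only that these letters are not in these windows.
Psmb9: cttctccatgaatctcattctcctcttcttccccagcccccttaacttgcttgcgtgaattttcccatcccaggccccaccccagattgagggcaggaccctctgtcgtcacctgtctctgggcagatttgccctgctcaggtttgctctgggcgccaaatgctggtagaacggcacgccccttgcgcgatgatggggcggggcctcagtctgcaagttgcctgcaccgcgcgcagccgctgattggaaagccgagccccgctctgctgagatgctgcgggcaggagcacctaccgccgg
Psmb10: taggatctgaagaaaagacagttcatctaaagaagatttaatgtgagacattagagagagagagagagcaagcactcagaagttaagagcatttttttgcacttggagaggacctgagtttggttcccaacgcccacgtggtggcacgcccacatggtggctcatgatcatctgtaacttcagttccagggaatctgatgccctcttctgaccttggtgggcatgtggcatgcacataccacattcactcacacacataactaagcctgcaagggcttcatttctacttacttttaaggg
Psmb5 (chr14:54617946-54618245, minus strand) and Psmb6 (chr11:70525107-70525406, plus strand) hold an antioxidant response element core (TGACNNNGC), the kind of site bound by NRF1 and NRF2, with its first base at -47 and at -9.
Psmb5: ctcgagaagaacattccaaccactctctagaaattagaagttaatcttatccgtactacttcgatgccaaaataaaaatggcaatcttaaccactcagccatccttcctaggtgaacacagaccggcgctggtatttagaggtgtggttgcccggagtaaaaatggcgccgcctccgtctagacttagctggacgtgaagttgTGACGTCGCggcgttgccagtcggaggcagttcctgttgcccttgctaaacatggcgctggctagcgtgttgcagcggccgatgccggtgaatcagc
Psmb6: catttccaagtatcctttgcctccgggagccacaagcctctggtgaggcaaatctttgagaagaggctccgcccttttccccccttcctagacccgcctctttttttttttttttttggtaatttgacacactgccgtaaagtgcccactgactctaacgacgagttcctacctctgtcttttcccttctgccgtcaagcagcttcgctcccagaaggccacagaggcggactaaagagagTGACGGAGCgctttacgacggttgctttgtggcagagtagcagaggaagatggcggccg
Among 32851 windows of the same length in the RefSeq table, the gamma-activated site was in 8.3%, the interferon-stimulated response element in 3.44% and the antioxidant response element core in 12.4%. Among the 42 proteasome genes with a window, 3 held the gamma-activated site (Psmb8, Psmd2, Psmg1), 5 the interferon-stimulated response element (Psmb3, Psmd4, Psmd9, Psme1, Psmg4), and 6 the antioxidant core (Psmb5, Psmb6, Psmc6, Psmd12, Psmd9, Psme4). A CCAAT box (CCAAT), a common promoter element, was in 37.4% of all windows and in those of 15 of the 42 genes. A match describes letters only. Psmb8 and Psmb9 lie in the MHC on chromosome 17 beside the peptide transporter genes, with Psmb9 at 34182030 to 34187330, Tap1 at 34187556 to 34197225, Psmb8 at 34198195 to 34201454 and Tap2 at 34204479 to 34216321. The windows of Psmb9 and Tap1, which face away from each other, share 275 bases (chr17:34187306-34187580). Psmb10 lies apart from them on chromosome 8, and Psme1 and Psme2 lie near each other on chromosome 14.

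On chow, RNA of the constitutive proteasome was lower in the libraries labelled dKO than in wild type across nearly every subunit, while Psmb8 was higher. Of the 48 tested genes, 34 fell and 1, Psmb8, rose in dKO_chow against WT_chow (edgeR's quasi-likelihood test with Benjamini-Hochberg adjustment over all 12891 genes, called at FDR below 0.05). Of all tested genes 46.3% were called between these groups, 21.9% lower and 24.4% higher, so the 34 of 48 are to be read against that background. Among the 31 constitutive subunits 29 fell, with log2 fold changes of -0.57 to -0.10 over all 31 and a median of -0.33, while the median over all tested genes was 0.02. CPM of the groups did not overlap for 34 genes that were lower, against 20.1% of all tested genes that were lower without overlap. The exceptions among constitutive subunits were the lid subunit Psmd7, at 75.3 ± 4.6 CPM in dKO_chow and 81.7 ± 1.38 CPM in WT_chow (FDR 0.103), and Psmd8, at 114 ± 2.73 CPM in dKO_chow and 122 ± 5.37 CPM in WT_chow (FDR 0.351).

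All 7 alpha subunits fell. Psma6, which forms part of the outer ring, had 83.0, 78.9, 76.1 and 83.4 CPM in dKO_chow libraries, against 104, 109, 119 and 107 CPM in WT_chow libraries. No dKO_chow library reached the lowest WT_chow library, and the log2 fold change was -0.45 ± 0.0712 (SE, FDR 3.75e-05 by edgeR). Psma7, another ring subunit, had 84.4, 82.8, 77.9 and 89.2 CPM in dKO_chow libraries, against 101, 114, 107 and 97.7 CPM in WT_chow libraries, again without overlap, with a log2 fold change of -0.33 ± 0.063 (FDR 0.000247).

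All 7 constitutive beta subunits fell, among them the 3 that carry active sites. Psmb5, the chymotrypsin-like subunit, had 36.2, 35.0, 33.7 and 38.5 CPM in dKO_chow libraries, against 48.7, 48.8, 51.4 and 44.8 CPM in WT_chow libraries. The groups did not overlap, and the log2 fold change was -0.43 ± 0.075 (edgeR FDR 9.24e-05). Psmb6, the caspase-like subunit, had 72.8, 79.1, 69.6 and 81.2 CPM in dKO_chow libraries, against 88.4, 98.6, 97.6 and 91.8 CPM in WT_chow libraries. Here too every dKO_chow library was lower than every WT_chow library, a log2 fold change of -0.31 ± 0.0738 (FDR 0.00155). Psmb7, the trypsin-like subunit, had 78.1, 78.4, 67.5 and 77.5 CPM in dKO_chow libraries, against 106, 106, 107 and 99.9 CPM in WT_chow libraries. It showed a log2 fold change of -0.47 ± 0.0739 (FDR 3.25e-05), about 28.0% less. Psmb4, a structural beta subunit, averaged 107 ± 5.51 CPM in dKO_chow and 128 ± 7.83 CPM in WT_chow (SD, n = 4 each), a log2 fold change of -0.26 ± 0.0608 (FDR 0.00168).

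In the regulatory particle, all 6 ATPases fell, by -0.37 to -0.29 on the log2 scale. Psmc6 had 75.2, 69.8, 70.7 and 66.9 CPM in dKO_chow libraries, against 88.0, 86.4, 93.1 and 92.7 CPM in WT_chow libraries. The groups were apart, with a log2 fold change of -0.35 ± 0.0664 (edgeR FDR 0.000237). Of the 11 other subunits 9 fell. Psmd14, the deubiquitinase that removes ubiquitin chains from substrates, had 35.6, 37.7, 30.8 and 35.6 CPM in dKO_chow libraries, against 51.4, 50.2, 54.6 and 49.5 CPM in WT_chow libraries. It had the smallest FDR of all proteasome genes in this comparison, with a log2 fold change of -0.56 ± 0.0779 (FDR 1.09e-05). Psmd1, the large scaffold of the base, averaged 106 ± 2.77 CPM in dKO_chow and 144 ± 4.68 CPM in WT_chow (SD, n = 4 each), a log2 fold change of -0.45 ± 0.0716 (FDR 4.17e-05). Psmd11, a lid subunit, averaged 24.8 ± 2.29 CPM in dKO_chow and 31.2 ± 1.34 CPM in WT_chow, a log2 fold change of -0.33 ± 0.0892 (FDR 0.00435).

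Of the 7 assembly chaperones 4 fell, namely Psmd5, Psmd9, Psmg1 and Psmg3. Psmg1, which pairs with Psmg2 to build the alpha ring, had 13, 13.5, 11.7 and 13.6 CPM in dKO_chow libraries, against 19.1, 19.4, 18.6 and 17.4 CPM in WT_chow libraries. The groups were apart, with a log2 fold change of -0.52 ± 0.0806 (edgeR FDR 3.01e-05). Psmd9, a chaperone of the ATPase ring, had 35.0, 33.2, 41.3 and 40.0 CPM in dKO_chow libraries, against 57.2, 50.3, 58.2 and 45.9 CPM in WT_chow libraries, a log2 fold change of -0.50 ± 0.123 (FDR 0.00209). Psmg4 was at 5.34 ± 0.358 CPM in dKO_chow and 4.48 ± 0.687 CPM in WT_chow (FDR 0.167). Among activators, Psme4 (PA200, linked to acetylated histone breakdown and spermatogenesis) fell to 110.1 ± 6.45 CPM in dKO_chow, against 132 ± 8.37 CPM in WT_chow, a log2 fold change of -0.26 ± 0.0706 (FDR 0.00489). The inhibitor gene Psmf1 (PI31) averaged 29.9 ± 1.49 CPM in dKO_chow and 32.0 ± 2.56 CPM in WT_chow (FDR 0.182).

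**Figure D1:**
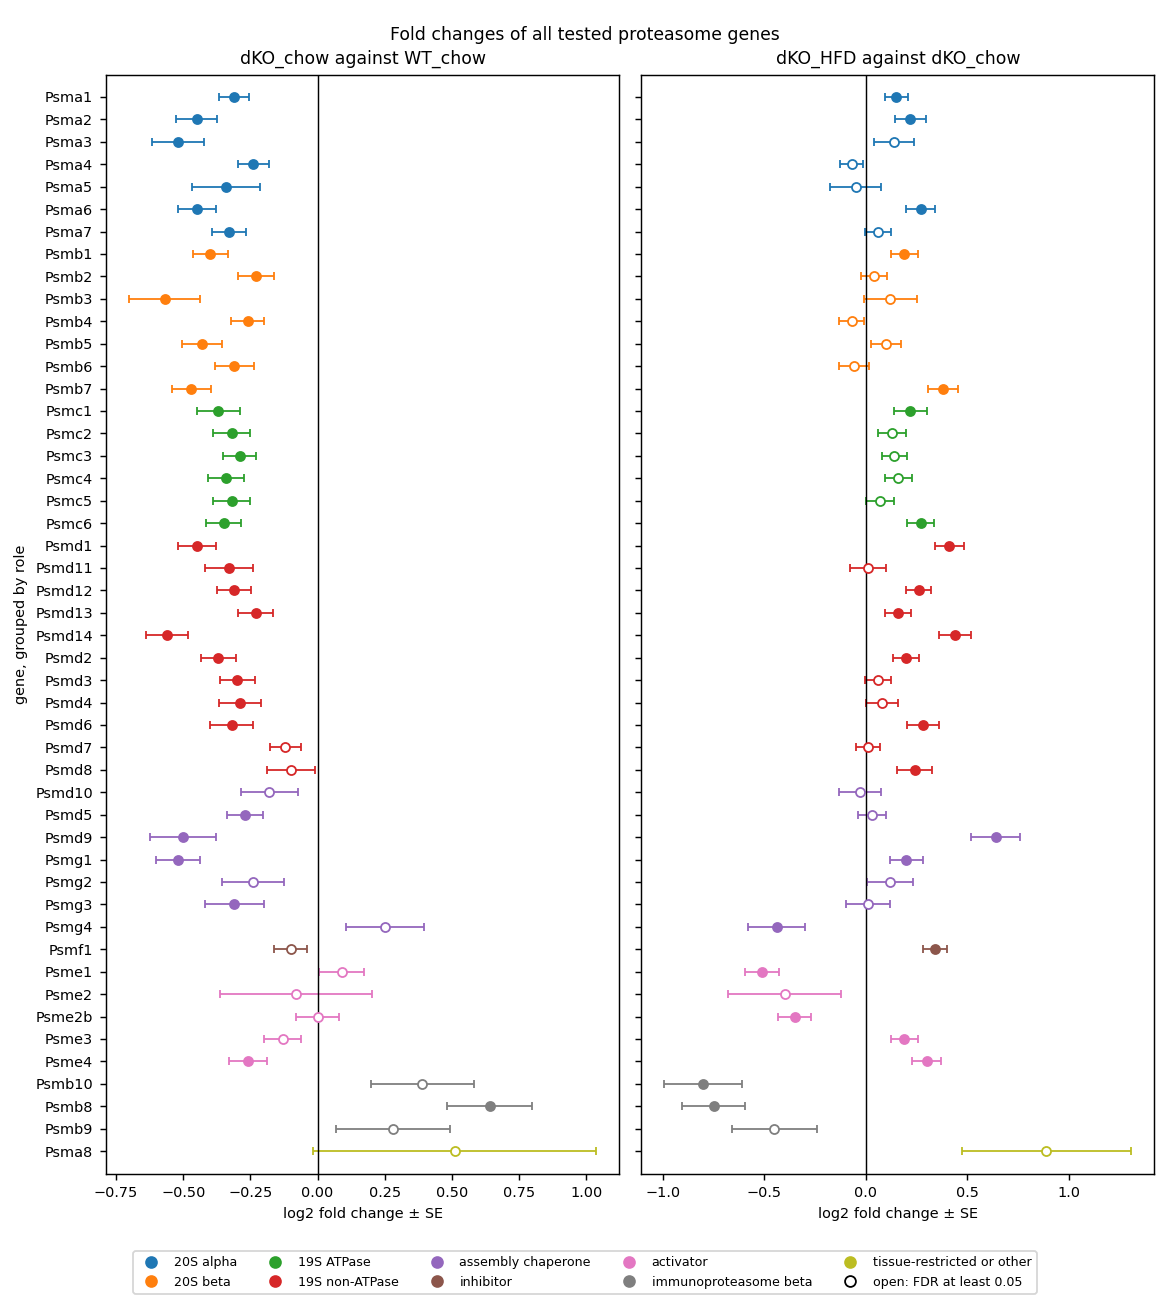
Log2 fold change with its standard error (x axis) for each of the 48 tested proteasome genes (y axis, grouped by role and coloured by it) in dKO_chow against WT_chow (left) and in dKO_HFD against dKO_chow (right); filled points are at FDR below 0.05 and open points are not. In the left panel all 31 constitutive subunits lie left of 0 and the 3 immunoproteasome subunits lie right of it, and in the right panel the 3 immunoproteasome subunits lie left of 0 while 27 of the 31 constitutive subunits lie right of it.

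Of the 3 immunoproteasome subunits 1 rose in this comparison and none fell. Psmb8, which replaces Psmb5, had 25.2, 22.8, 20.3 and 37.9 CPM in dKO_HFD libraries, 47.0, 45.5, 43.8 and 40.6 in dKO_chow, 17.3, 21.7 and 23.3 in IL4KO_HFD, 26.6, 27.3, 23.9 and 21.6 in IL4KO_chow, 27.0, 34.1, 29.4 and 30.3 in WT_HFD, and 33.4, 34.2, 23.2 and 22.8 in WT_chow. Every dKO_chow library was above every library of the other 5 groups. Against WT_chow it rose by 0.64 ± 0.158 on the log2 scale (55.6%, edgeR FDR 0.00262). Psmb10, which replaces Psmb7, had 16.4, 15.0, 17.6 and 33.1 CPM in dKO_HFD libraries, 34.6, 39.6, 30.8 and 36.1 in dKO_chow, 20.7, 20.8 and 19.8 in IL4KO_HFD, 27.6, 24.7, 21.6 and 17 in IL4KO_chow, 24.1, 24.8, 25.3 and 20.1 in WT_HFD, and 23.9, 35.0, 25.4 and 23.8 in WT_chow. WT_chow replicate 2, at 35.0 CPM, reached into the dKO_chow range, and the log2 fold change of 0.39 ± 0.192 was not called (FDR 0.106). It was called without that library (0.52, FDR 0.0418) and when only the compared groups were fitted (FDR 0.024). Psmb9, which replaces Psmb6, had 10.9, 8.98, 7.66 and 13 CPM in dKO_HFD libraries, 13.9, 14.3, 15.6 and 11.1 in dKO_chow, 8.57, 14.1 and 10.3 in IL4KO_HFD, 10.7, 12.5, 4.72 and 9.05 in IL4KO_chow, 14.1, 16.3, 14.3 and 16.6 in WT_HFD, and 11.6, 14, 11.6 and 7.89 in WT_chow. The dKO_chow and WT_chow libraries overlapped, with a log2 fold change of 0.28 ± 0.211 (FDR 0.286).

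**Figure D2:**
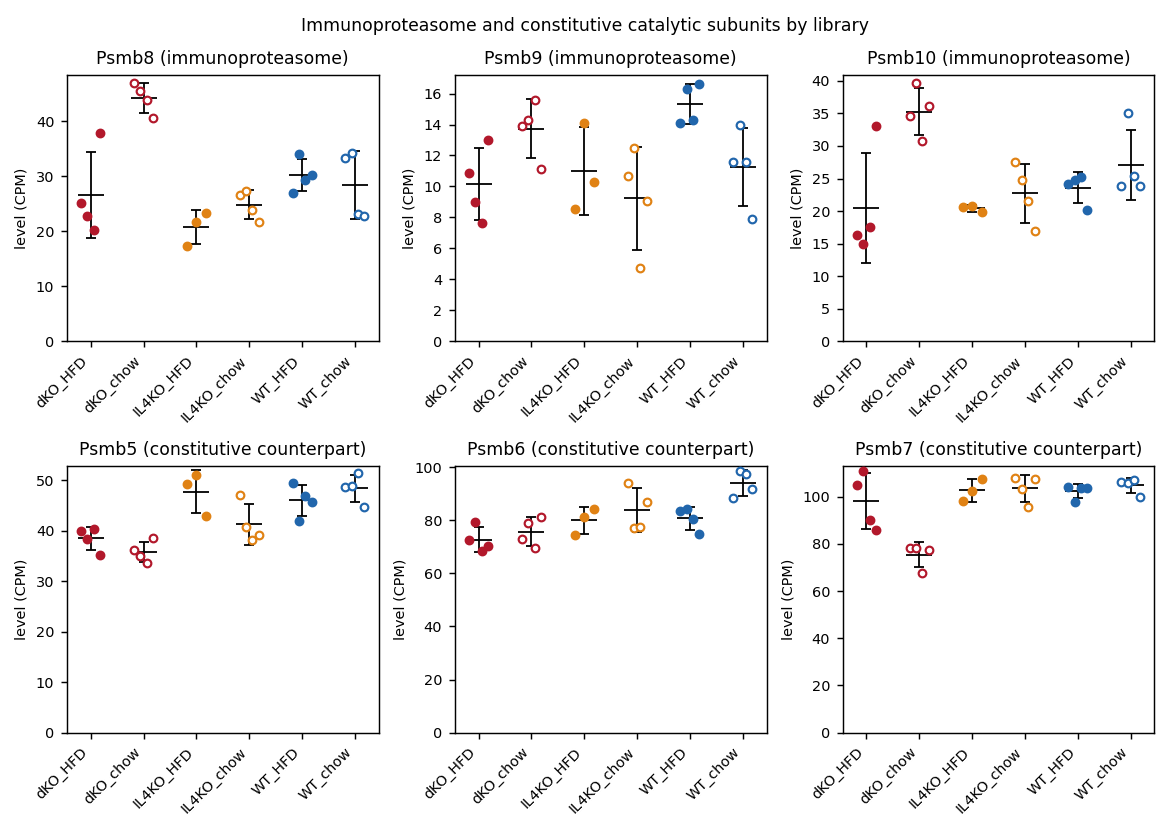
CPM (y axis) of the 3 immunoproteasome subunits and of the constitutive subunits they replace, by group (x axis); each point is 1 library, filled on the high-fat diet and open on chow, coloured by genotype, and bars show the mean ± SD. Psmb8 in dKO_chow libraries, at 40.6 to 47.0 CPM, sits above all other groups, and dKO_HFD replicate 4 sits apart from the other dKO_HFD libraries for Psmb8 and Psmb10.

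Psme1 and Psme2 encode the PA28 cap, an activator induced with the immunoproteasome that opens the core without ATP. Psme1 had 52.4, 45.9, 43.1 and 50.7 CPM in dKO_chow libraries, against 48.4, 47.1, 41.5 and 42.9 CPM in WT_chow libraries. The libraries overlapped and the log2 fold change was 0.09 ± 0.0839 (edgeR FDR 0.375). Reads of the second PA28 gene were listed mostly under Psme2b, an intronless copy on chromosome 11, with 60.0 ± 2.31 CPM in dKO_chow and 59.9 ± 7.18 CPM in WT_chow, while Psme2 itself averaged 1.16 ± 0.0881 CPM in dKO_chow and 1.21 ± 0.311 CPM in WT_chow. The annotated transcripts differ at 5 of 794 aligned bases (99.4% identity), so the share of each is uncertain. The summed counts gave the same calls as Psme2b in all 9 comparisons between groups. Nearly all of the summed counts were those of Psme2b, so this agreement does not show how reads were split.

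Counts of each immunoproteasome subunit per 100 counts of its constitutive counterpart put both movements on 1 scale, as a description with no test. Psmb8 had 63.1, 59.3, 50.3 and 107.3 counts per 100 of Psmb5 in dKO_HFD libraries, 129.7, 129.9, 130.2 and 105.6 in dKO_chow, 35.0, 42.5 and 54.2 in IL4KO_HFD, 56.4, 66.8, 62.5 and 55.2 in IL4KO_chow, 54.7, 81.1, 62.7 and 66.2 in WT_HFD, and 68.5, 70.1, 45.1 and 50.9 in WT_chow. All 4 dKO_chow libraries and dKO_HFD replicate 4 held more Psmb8 than Psmb5 counts, and no other library did. Equal counts are not equal levels, since the principal transcripts hold 1628 bases for Psmb8 and 899 for Psmb5. Per kilobase, Psmb8 stayed below Psmb5 in dKO_chow (27.2 ± 1.69 against 39.9 ± 2.27, SD, n = 4). Psmb10 averaged 21.8 ± 11.4 counts per 100 of Psmb7 in dKO_HFD, 46.7 ± 2.72 in dKO_chow, 20.0 ± 1.36 in IL4KO_HFD, 22 ± 4.27 in IL4KO_chow, 23.1 ± 2.61 in WT_HFD and 25.7 ± 4.89 in WT_chow. The lowest dKO_chow library, at 44.3, was above the highest WT_chow library, at 33.0, although the CPM of Psmb10 overlapped. Psmb9 averaged 14 ± 3.47 counts per 100 of Psmb6 in dKO_HFD, 18.3 ± 3.63 in dKO_chow, 13.7 ± 3.17 in IL4KO_HFD, 11 ± 4.14 in IL4KO_chow, 19 ± 2.33 in WT_HFD and 11.9 ± 2.43 in WT_chow. This pair showed a different order, with WT_HFD as high as dKO_chow.

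**Figure D3:**
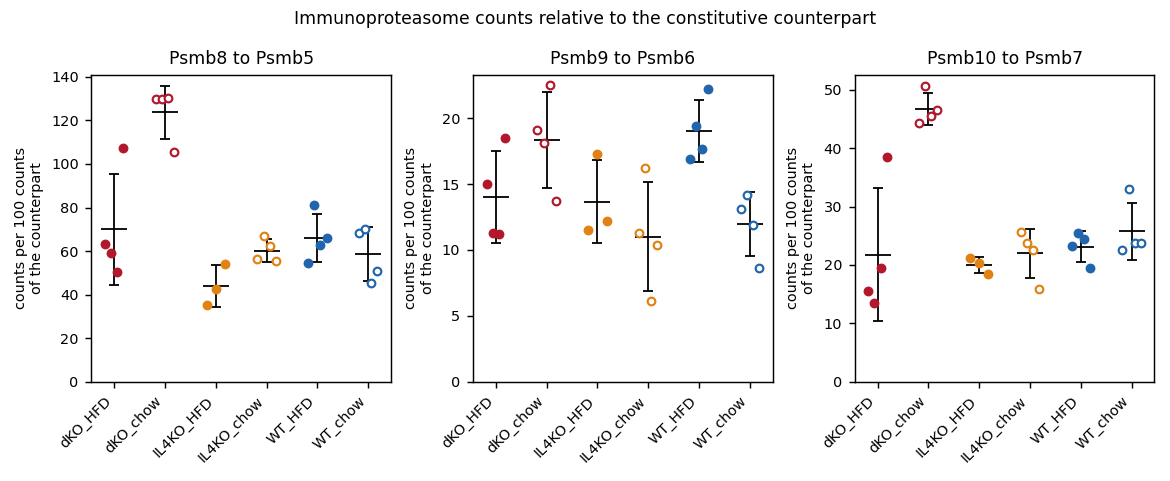
Counts of Psmb8, Psmb9 and Psmb10 per 100 counts of Psmb5, Psmb6 and Psmb7 (y axis) by group (x axis), with 1 point per library, filled on the high-fat diet and open on chow, coloured by genotype, and bars for the mean ± SD. The Psmb8 and Psmb10 ratios of dKO_chow libraries, at 105.6 to 130.2 and 44.3 to 50.6, stand above those of every IL4KO and WT library, while the Psmb9 ratio of WT_HFD overlaps that of dKO_chow.

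Markers of other cell types differed between the same groups, where 24.4% of all tested genes were higher and 21.9% lower. In dKO_chow against WT_chow, 9 of 10 leukocyte markers rose, with a summed level of 281.5 to 353.8 CPM in dKO_chow libraries and 159.5 to 218.9 CPM in WT_chow libraries. All 10 neutrophil markers rose (139.6 to 466.3 CPM in dKO_chow, 2.72 to 29.2 CPM in WT_chow), as did 9 of 10 Kupffer cell and macrophage markers (877.8 to 1106.5 CPM in dKO_chow, 304.7 to 571.3 CPM in WT_chow), 7 of 9 tested T and NK cell markers (12.3 to 19.1 CPM in dKO_chow, 2.99 to 7.58 CPM in WT_chow), 1 of 2 tested B and plasma cell markers (7.42 to 20.0 CPM in dKO_chow, 3.26 to 6.38 CPM in WT_chow) and all 6 cholangiocyte markers (462.1 to 834.9 CPM in dKO_chow, 44.4 to 52.1 CPM in WT_chow). Of 9 hepatocyte markers 6 fell, with a summed level of 89752 to 100688 CPM in dKO_chow and 127640 to 130018 CPM in WT_chow, and of 6 endothelial markers 1 rose and 1 fell. No listed marker was at 0 in all libraries of either group. The sums also include listed genes that were not tested. Several T and NK cell and neutrophil markers were very low outside dKO_chow. Cd3e averaged 1.11 CPM in dKO_chow and 0.266 CPM in WT_chow, and Elane 5.83 CPM in dKO_chow and 0.269 CPM in WT_chow. Such genes passed the filter through dKO_chow, so counts of called markers, here and in later comparisons with dKO_chow, are partly set by the filter. Spp1 made up most of the cholangiocyte sum in every group (624.4 CPM in dKO_chow, 39.7 CPM in WT_chow). Lcp1, the leukocyte marker that was not called, averaged 95.0 CPM in dKO_chow and 101.8 CPM in WT_chow, a large part of the leukocyte sum. The part of these cell types in the proteasome results was not tested.

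The other genes of the pathway were read from a list of NRF1, the transcription factor of proteasome genes, its processing enzymes, ubiquitin genes and proteasome partners. In dKO_chow against WT_chow, 8 of the 17 listed genes in the table fell and 1 rose, where 21.9% of all tested genes were lower and 24.4% higher. The median log2 fold change was -0.18 (0.02 over all tested genes). Vcp, the ATPase that extracts ubiquitylated proteins, fell by 0.44 on the log2 scale (FDR 4.42e-05 by edgeR). The ubiquitin receptor Adrm1 fell by 0.46 (FDR 0.0024), and Pomp, the chaperone that matures the core, averaged 92.1 ± 7.79 CPM in dKO_chow and 104 ± 7.72 CPM in WT_chow (log2 fold change -0.18, FDR 0.0408). Nfe2l1, which encodes NRF1, averaged 144 ± 17.4 CPM in dKO_chow and 160.0 ± 14.3 CPM in WT_chow (FDR 0.308).

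A list of 16 genes of MHC class I antigen processing and its inducers had 8 higher and 1 lower in dKO_chow against WT_chow, with a median log2 fold change of 0.27. Over all tested genes 24.4% were higher and 21.9% lower, with a median of 0.02. Tap1, a subunit of the peptide transporter, averaged 39.7 ± 3.83 CPM in dKO_chow and 25.6 ± 4.58 CPM in WT_chow (log2 fold change 0.63, edgeR FDR 0.00249). Tapbp, which loads peptides onto class I, averaged 132 ± 0.918 CPM in dKO_chow and 94.7 ± 11.6 CPM in WT_chow (0.48, FDR 0.000446). The class I transactivator Nlrc5 rose by 0.97 (FDR 0.000279) and the interferon-responsive factor Irf1 by 1.19 (FDR 0.000966). B2m, the class I light chain, averaged 1598 ± 92.4 CPM in dKO_chow and 1584 ± 145 CPM in WT_chow (FDR 0.913).

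The double knockout and the IL-4 knockout differ, by their labels, in IL-10. On chow, 23 of the 48 proteasome genes fell and 6 rose in dKO_chow against IL4KO_chow, where 45.2% of all tested genes were called (22.2% lower, 23.0% higher). The 6 that rose were Psmb8, Psmb9, Psmb10, Psme1, Psme2b and the chaperone Psmg4, and 19 of the 31 constitutive subunits fell (median log2 fold change -0.21, against 0.01 over all tested genes). Psmb8 rose by 0.83 ± 0.162 on the log2 scale (44.2 ± 2.74 CPM in dKO_chow, 24.8 ± 2.62 CPM in IL4KO_chow, SD, n = 4 each, edgeR FDR 0.000348), and Psmb10 by 0.63 ± 0.197 (35.3 ± 3.69 CPM in dKO_chow, 22.7 ± 4.55 CPM in IL4KO_chow, FDR 0.0138). The call of Psmb10 was lost without IL4KO_chow replicate 4 (FDR 0.0554). Psmb9 rose by 0.54 ± 0.218 (13.7 ± 1.9 CPM in dKO_chow, 9.23 ± 3.31 CPM in IL4KO_chow, FDR 0.047), a call that was lost without any 1 of 6 libraries, among them IL4KO_chow replicate 3 at 4.72 CPM (0.35, FDR 0.155). That Psmb9 call was also lost with no filter on low counts (edgeR FDR 0.0704) and with only the compared groups fitted (edgeR FDR 0.0707). Psmd9 fell by 0.68 (37.3 ± 3.9 CPM in dKO_chow, 59.6 ± 3.87 CPM in IL4KO_chow, FDR 0.000155), and Psmd14 by 0.52 (30.8 to 37.7 CPM in dKO_chow, 48.2 to 52.2 CPM in IL4KO_chow, FDR 2.55e-05). Upper quartile scaling moved the median of all genes to 0.097 and gave 6 higher and 12 lower, with 10 constitutive subunits lower. Psme1 (FDR 0.0192) lost its call with thinned libraries (FDR 0.169) and without IL4KO_chow replicate 4 or dKO_chow replicate 1 or 4 (FDR 0.0588 to 0.0727). Psme2b (FDR 0.043) lost its call with DESeq2 (FDR 0.0579), with no filter (FDR 0.0914) and without any 1 of 6 libraries (IL4KO_chow replicates 2, 3 and 4 and dKO_chow replicates 1, 3 and 4, FDR 0.0569 to 0.142). In the same comparison 9 of 10 leukocyte, all 10 neutrophil, all 10 Kupffer cell and macrophage, 8 of 9 T and NK cell, 1 of 2 B and plasma cell and all 6 cholangiocyte markers were higher, and 7 of 9 hepatocyte markers were lower (median log2 fold change -0.63, with sums of 89752.2 to 100687.6 CPM in dKO_chow and 106942.9 to 134706.8 CPM in IL4KO_chow). Of 6 endothelial markers 1 was lower. Their part in the result was not tested.

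**Figure D4:**
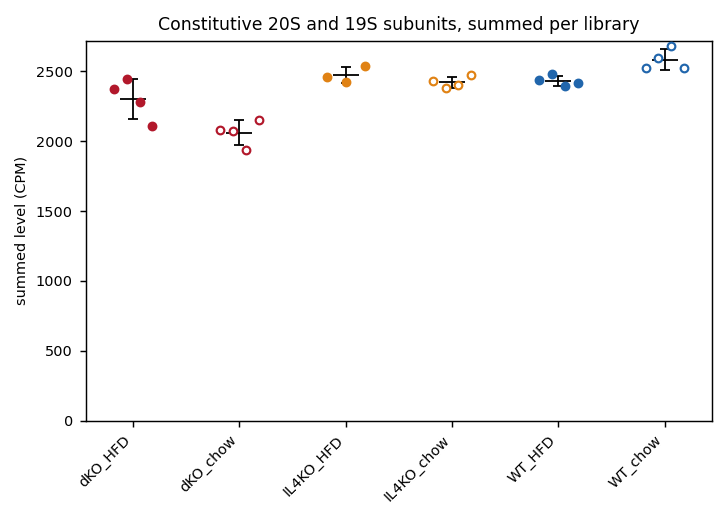
Summed CPM of the 31 constitutive subunits (y axis) in each library by group (x axis), with 1 point per library, filled on the high-fat diet and open on chow, coloured by genotype, and bars for the mean ± SD. The dKO_chow libraries, at 1940.2 to 2152.9 CPM, lie below every IL4KO and WT library, and dKO_HFD replicate 4, at 2107.1 CPM, lies within their range.

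The summed level of the 31 constitutive subunits gives each liver a single value, as a description. It was 2369.7, 2445.5, 2282.0 and 2107.1 CPM in dKO_HFD libraries, 2078.8, 2074.3, 1940.2 and 2152.9 in dKO_chow, 2460.2, 2423.4 and 2536.8 in IL4KO_HFD, 2429.1, 2377.0, 2403.9 and 2470.3 in IL4KO_chow, 2434.2, 2478.4, 2391.4 and 2416.1 in WT_HFD, and 2526.4, 2597.1, 2681.6 and 2524.2 in WT_chow. The dKO_chow libraries were the lowest except that dKO_HFD replicate 4 lay among them, and the WT_chow libraries were above the other groups except that IL4KO_HFD replicate 3 reached into their range.

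With the high-fat diet, most called proteasome genes rose in the libraries labelled dKO, while immunoproteasome and PA28 genes were among the few that fell. In dKO_HFD against dKO_chow, 19 of the 48 genes rose and 5 fell, where 40.0% of all tested genes were called (20.5% lower, 19.4% higher). Those that fell were Psmb8, Psmb10, Psme1, Psme2b and Psmg4, and 14 of the 31 constitutive subunits rose with none falling (median log2 fold change 0.14, against -0.02 over all tested genes). This comparison shares the dKO_chow libraries with those above. Upper quartile scaling, which moved the median of all genes to -0.095, gave 10 higher and 6 lower, with 7 constitutive subunits higher and 1 lower. Without dKO_HFD replicate 4 the counts were 23 higher and 6 lower, while 14 genes in all were called without dKO_HFD replicate 1, 15 without replicate 2, and 15 without dKO_chow replicate 3.

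Psmb8 fell to 26.6 ± 7.81 CPM in dKO_HFD, against 44.2 ± 2.74 CPM in dKO_chow, a log2 fold change of -0.75 ± 0.157 (SE, edgeR FDR 0.00089), with no overlap although replicate 4 (37.9 CPM) came close. Psmb10 fell to 20.5 ± 8.46 CPM in dKO_HFD, against 35.3 ± 3.69 CPM in dKO_chow, a log2 fold change of -0.80 ± 0.192 (FDR 0.00269), with dKO_HFD replicate 4 inside the dKO_chow range at 33.1 CPM. Psmb9 was at 10.1 ± 2.31 CPM in dKO_HFD and 13.7 ± 1.9 CPM in dKO_chow and was not called (FDR 0.0862), though it was without dKO_HFD replicate 4 (-0.585, FDR 0.0307). Psme1 had 32.1, 30.5, 31.3 and 41.2 CPM in dKO_HFD libraries, all below the dKO_chow libraries, and fell by 0.51 ± 0.0838 (FDR 8.85e-05), while Psme2b fell by 0.35 ± 0.0803 (47.0 ± 3.37 CPM in dKO_HFD, 60.0 ± 2.31 CPM in dKO_chow, FDR 0.00154).

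Among constitutive subunits, Psmd1 had 151.4, 147.0, 150.5 and 112.6 CPM in dKO_HFD libraries, against 108.8, 105.7, 102.0 and 105.8 CPM in dKO_chow libraries. It rose by 0.41 ± 0.0715 on the log2 scale (edgeR FDR 0.000153), with dKO_HFD replicate 4 nearest the dKO_chow libraries. Psmd14 had 53.3, 50.9, 46.8 and 39.1 CPM in dKO_HFD libraries, all above the dKO_chow libraries, and rose by 0.44 ± 0.0772 (FDR 0.000154). Psmb7 had 105, 111, 90.1 and 86.0 CPM in dKO_HFD libraries, also without overlap, and rose by 0.38 ± 0.0736 (FDR 0.000411). The counterparts of the other immunoproteasome subunits were not called, Psmb5 at 38.5 ± 2.31 CPM in dKO_HFD and 35.8 ± 2.04 CPM in dKO_chow (FDR 0.277) and Psmb6 at 72.7 ± 4.74 CPM in dKO_HFD and 75.7 ± 5.42 CPM in dKO_chow (FDR 0.562).

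Psmd9 had 64.3, 68.4, 56.6 and 43.1 CPM in dKO_HFD libraries, against 35.0, 33.2, 41.3 and 40.0 CPM in dKO_chow libraries. It showed the largest called rise of the proteasome genes, 0.64 ± 0.121 on the log2 scale (edgeR FDR 0.000336). Psmf1 had 39.4, 38.2, 36.2 and 37.0 CPM in dKO_HFD libraries, against 29.0, 28.2, 31.0 and 31.2 CPM in dKO_chow libraries, and rose without overlap by 0.34 ± 0.0599 (FDR 0.00019). Psme4 rose by 0.30 ± 0.0704 (135 ± 8.64 CPM in dKO_HFD, 110.1 ± 6.45 CPM in dKO_chow, FDR 0.00214), and Psme3, the nuclear PA28-gamma, by 0.19 ± 0.068 (65.7 ± 4.6 CPM in dKO_HFD, 57.6 ± 1.19 CPM in dKO_chow, FDR 0.0306).

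The partner list had 9 of 17 genes higher and 2 lower in dKO_HFD against dKO_chow, with Nfe2l1 at 188 ± 36.1 CPM in dKO_HFD and 144 ± 17.4 CPM in dKO_chow (log2 fold change 0.38, edgeR FDR 0.0124) and Ngly1, the glycanase that activates NRF1, higher by 0.42 (FDR 0.000208). The class I list had 9 of 16 lower and 1 higher, with log2 fold changes of -0.68 for Tapbp (FDR 2.62e-05) and -0.41 for Tap1 (FDR 0.0339). Over all tested genes 19.4% were higher and 20.5% lower in this comparison. All 10 leukocyte markers fell, with sums of 138.4 to 214.5 CPM in dKO_HFD and 281.5 to 353.8 CPM in dKO_chow, as did all 10 neutrophil, all 10 Kupffer cell and macrophage, 8 of 9 T and NK cell, both tested B and plasma cell and all 6 cholangiocyte markers, while 6 of 9 hepatocyte markers rose. The highest leukocyte sum of dKO_HFD, 214.5 CPM, was that of replicate 4, which also held the highest Psmb8, Psmb9, Psmb10 and Psme1 of its group. The part of these cells in the result was not tested.

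In wild type, 9 of the 48 proteasome genes fell with the high-fat diet and none rose, where 19.5% of all tested genes were called (9.84% lower, 9.63% higher). The 9 were all constitutive subunits, namely Psma4, Psma7, Psmb4, Psmb6, Psmc2, Psmc3, Psmc5, Psmd3 and Psmd11, with log2 fold changes of -0.32 to -0.17. Psmc2, an ATPase, had 81.7, 85.4, 87.4 and 85.9 CPM in WT_HFD libraries, against 98.0, 103, 108 and 98.6 CPM in WT_chow libraries. It fell without overlap, a log2 fold change of -0.26 ± 0.0681 (edgeR FDR 0.00974), and was the 1 gene left at FDR below 0.01. Psmd11 fell to 24.9 ± 3.01 CPM in WT_HFD, against 31.2 ± 1.34 CPM in WT_chow, a log2 fold change of -0.32 ± 0.0908 (FDR 0.0171), and Psmb4 to 110.5 ± 6.32 CPM in WT_HFD, against 128 ± 7.83 CPM in WT_chow, a log2 fold change of -0.21 ± 0.061 (FDR 0.0202). The count was 3 without WT_chow replicate 3 or WT_HFD replicate 4, and 4 without WT_chow replicate 2. With DESeq2, 9 constitutive subunits were lower and 1 was higher. The immunoproteasome genes were not called, although every WT_HFD library, at 14.1 to 16.6 CPM, was above the highest WT_chow library for Psmb9 (log2 fold change 0.44 ± 0.214, FDR 0.158). Psmb9 was called when only the compared groups were fitted (edgeR FDR 0.0473). Psmb8 was at 30.2 ± 2.93 CPM in WT_HFD and 28.4 ± 6.23 CPM in WT_chow (FDR 0.756).

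In the IL-4 knockout, 2 lid subunits rose and none fell with the high-fat diet, where 9.08% of all tested genes were called (3.94% lower, 5.14% higher). Psmd8 had 150.5, 204.5 and 134.4 CPM in IL4KO_HFD libraries, against 118.6, 115.4, 114.8 and 122.6 CPM in IL4KO_chow libraries, and rose by 0.47 ± 0.0959 on the log2 scale (edgeR FDR 0.00431). Psmd8 was also higher without overlap in wild type (131.8 to 151.8 CPM in WT_HFD, 115.1 to 126.8 CPM in WT_chow, not called). The same held in the libraries labelled dKO (125.1 to 140.9 CPM in dKO_HFD, 111.3 to 116.2 CPM in dKO_chow). Psmd13 rose by 0.23 ± 0.0713 (71.7 ± 3.41 CPM in IL4KO_HFD, n = 3, 61.0 ± 3.01 CPM in IL4KO_chow, n = 4, FDR 0.0434). No gene was called without IL4KO_HFD replicate 2, the library with 204.5 CPM of Psmd8, and 1 was called without IL4KO_HFD replicate 1 or IL4KO_chow replicate 2 or 3. Psmb8, Psmb9 and Psmb10 were at 20.8 ± 3.15, 11 ± 2.82 and 20.4 ± 0.523 CPM in IL4KO_HFD and at 24.8 ± 2.62, 9.23 ± 3.31 and 22.7 ± 4.55 CPM in IL4KO_chow, with no call.

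On the high-fat diet, in dKO_HFD against WT_HFD, 5 of the 48 genes fell (Psma5, Psmb5, Psmb9, the chaperone Psmd5 and Psme2b) and 1, Psmf1, rose, where 24.5% of all tested genes were called (11.6% lower, 12.9% higher). Psmb9 fell to 10.1 ± 2.31 CPM in dKO_HFD, against 15.3 ± 1.31 CPM in WT_HFD, a log2 fold change of -0.61 ± 0.211 (edgeR FDR 0.038). That call was lost without any 1 of 6 libraries (each WT_HFD library and dKO_HFD replicates 2 and 3, FDR 0.0517 to 0.115). It was also lost with limma on the deposited log2 values (FDR 0.064). Psmb8 was not called (26.6 ± 7.81 CPM in dKO_HFD, 30.2 ± 2.93 CPM in WT_HFD, FDR 0.39), nor was Psmb10 (20.5 ± 8.46 CPM in dKO_HFD, 23.6 ± 2.37 CPM in WT_HFD, FDR 0.462). Without dKO_HFD replicate 4 both were called lower in dKO_HFD, with log2 fold changes of -0.41 for Psmb8 (FDR 0.0284) and -0.53 for Psmb10 (FDR 0.0109), and the count of called genes was 9, with 4 without any WT_HFD library or dKO_HFD replicate 3. Psmb5 fell by 0.26 ± 0.0751 (38.5 ± 2.31 CPM in dKO_HFD, 46.0 ± 3.08 CPM in WT_HFD, FDR 0.0162) and lost its call without dKO_HFD replicate 4 (FDR 0.0518) or WT_HFD replicate 1 (FDR 0.0615). Psmf1 rose by 0.26 ± 0.0607 (37.7 ± 1.39 CPM in dKO_HFD, 31.5 ± 1.21 CPM in WT_HFD, FDR 0.00419). In this comparison all 6 cholangiocyte markers were higher (median log2 fold change 1.33, with sums of 106.9 to 299.9 CPM in dKO_HFD and 70.5 to 104.8 CPM in WT_HFD), 2 of 9 hepatocyte markers were higher and 1 lower, 1 of 9 T and NK cell markers was higher, and 1 of 6 endothelial markers was higher and 1 lower. No leukocyte, neutrophil, Kupffer cell and macrophage or B and plasma cell marker was called. Their part in the result was not tested.

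In dKO_HFD against IL4KO_HFD 1 gene fell, Psmb5, at 38.5 ± 2.31 CPM in dKO_HFD (n = 4) and 47.8 ± 4.17 CPM in IL4KO_HFD (n = 3), a log2 fold change of -0.31 ± 0.0819 (edgeR FDR 0.0439), where 2.51% of all tested genes were called (1.56% lower, 0.946% higher). The call was lost without dKO_HFD replicate 2 or 4 or IL4KO_HFD replicate 1 or 2 (FDR 0.0996 to 0.253), and the count was 2 without IL4KO_HFD replicate 3. In IL4KO_chow against WT_chow 3 genes fell and none rose, where 9.61% of all tested genes were called (3.68% lower, 5.93% higher). All 31 constitutive subunits had a log2 fold change below 0 here, as in dKO_chow against WT_chow, though only 2 were called. Their median was -0.098, against -0.011 over all tested genes. Both comparisons share the WT_chow libraries, so their directions are not independent. In WT_HFD against WT_chow, which shares them too, 27 of the 31 were below 0. In IL4KO_HFD against WT_HFD 12 were below 0 and 19 above, with a median of 0.007. Psmb3, a structural beta subunit, had 5.84, 5.96, 6.01 and 6.96 CPM in IL4KO_chow libraries, against 9.53, 9.38, 11.1 and 8.17 CPM in WT_chow libraries, and fell without overlap, with a log2 fold change of -0.63 ± 0.141 (FDR 0.00634). Psma4 fell by 0.21 ± 0.0585 (65.0 ± 1.39 CPM in IL4KO_chow, 75.4 ± 4.48 CPM in WT_chow, FDR 0.0225), and Psmg1 fell by 0.34 ± 0.0844 (14.7 ± 1.39 CPM in IL4KO_chow, 18.6 ± 0.9 CPM in WT_chow, FDR 0.0114). The count was 5 without WT_chow replicate 4 and 2 without WT_chow replicate 2 or 3 or IL4KO_chow replicate 2 or 3.

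In IL4KO_HFD against WT_HFD no proteasome gene was called, where 3.02% of all tested genes were called (1.29% lower, 1.73% higher). By edgeR 7 of the 48 had an unadjusted p below 0.05, 3 higher and 4 lower, and DESeq2 and limma on the deposited log2 values also called 0. Psmb8 was among the 7, with 20.8 ± 3.15 CPM in IL4KO_HFD (n = 3) and 30.2 ± 2.93 CPM in WT_HFD (n = 4), the groups apart, and a log2 fold change of -0.54 ± 0.183 (FDR 0.121). Without IL4KO_HFD replicate 2 the count was 2.

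The difference between diet effects was tested directly. The diet effect in the libraries labelled dKO differed from that in wild type for 24 of the 48 genes, 21 more positive and 3 more negative, where 25.2% of all tested genes were called (12.6% more negative, 12.6% more positive). The 21 included 17 constitutive subunits, such as Psmb7 (0.41 ± 0.104 on the log2 scale, edgeR FDR 0.00855), Psmc2 (0.39 ± 0.0959, FDR 0.00752) and Psmd14 (0.39 ± 0.11, FDR 0.0156), and Psmd9 (0.75 ± 0.173, FDR 0.00511). The 3 were Psmb8 (-0.83 ± 0.225, FDR 0.0126), Psmb9 (-0.90 ± 0.298, FDR 0.0333) and Psmg4 (-0.62 ± 0.206, FDR 0.0315). Psmb10 was not called (-0.60 ± 0.275, FDR 0.115), nor were Psme1 (-0.31 ± 0.119, FDR 0.0607) and Psme2b (-0.30 ± 0.114, FDR 0.0554). Upper quartile scaling gave 9 more positive and 5 more negative. The count was 15 without dKO_chow replicate 3, 16 without dKO_HFD replicate 2 and 31 without dKO_HFD replicate 4, with 25 more positive and 6 more negative. The call of Psmb9 was lost without any 1 of 8 libraries (FDR 0.0548 to 0.0771). In the same contrast 9 of 10 leukocyte, 9 of 10 Kupffer cell and macrophage, 4 of 6 cholangiocyte, 1 of 10 neutrophil, 1 of 9 T and NK cell and 1 of 2 B and plasma cell markers were more negative, and 5 of 9 hepatocyte markers more positive. Of 6 endothelial markers 1 was more positive and 2 more negative. Their part in the result was not tested.

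Set against the diet effect in the IL-4 knockout, that of the libraries labelled dKO was more positive for 7 genes and more negative for none, where 24.4% of all tested genes were called (11.7% more negative, 12.7% more positive). The 7 were Psmb7, Psmc6, Psmd1, Psmd2, Psmd9, Psmd14 and Psme4, with differences of 0.28 to 0.54 on the log2 scale. Psmb8 was not called in it (-0.48 ± 0.243, edgeR FDR 0.154). The count was 13 without dKO_HFD replicate 4, with 9 more positive and 4 more negative, 2 without IL4KO_HFD replicate 2 and 4 without dKO_HFD replicate 2, and upper quartile scaling gave 3 more positive and 1 more negative. Here 9 of 10 leukocyte, 9 of 10 Kupffer cell and macrophage, 3 of 6 cholangiocyte and 1 of 10 neutrophil markers were more negative, 4 of 9 hepatocyte markers were more positive, and 1 T and NK cell and 1 endothelial marker were called in each direction, a part that was not tested. The diet effect in the IL-4 knockout against that in wild type gave 0 calls, where 0.0465% of all tested genes were called (0.031% more negative, 0.0155% more positive), with 7 genes at an unadjusted p below 0.05 by edgeR, all more positive, and 0 calls by DESeq2 and by limma.

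Some proteasome genes overlap other annotated genes, measured over whole gene spans with introns included. How much of each overlap lies in exons was not read, and the strand setting of the authors' counting is not given. Whether reads were shared there is therefore not known. The overlaps given below for Psmd1, Psme4 and Psma3 exceed their principal transcripts of 3112, 6491 and 2846 bases, so they are not all in exons of those transcripts. Psma3 overlaps 3110056K07Rik by 4263 bases, Psma4 overlaps AY074887 by 174 bases, Psmd10 overlaps Atg4a by 2867 bases and Psmf1 overlaps Tmem74b by 684 bases. Psmd1 overlaps Htr2b by 18686 bases, Psme4 overlaps Erlec1 by 18357 bases, Psme2b overlaps 9930111J21Rik1 by 261 bases and Psme1 overlaps Emc9 by 9 bases. Annotated pseudogenes overlap Psma6, Psmb7, Psmd13 and Psme4.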

How the data were processed

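RNA from 23 mouse livers in 6 groups of genotype and diet was sequenced as poly(A) libraries with a stranded kit. Per the submitters' processing notes the tools were bcl2fastq 2.16, TopHat2 2.0.8 and Partek, with build mm10, and how strand was used in counting is not given in the sources used here. Values were deposited by the authors as estimated counts for each gene, of which 88.5% to 94.3% of values per library were whole, and a table of normalized log2 values, used for 1 alternative. No column of the tables was left unmapped to a sample.

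Estimated counts were rounded, filtered with filterByExpr, scaled by TMM and fitted for all 12891 genes passing the filter with edgeR 4.0.16 in R 4.3.3 (robust quasi-likelihood, 6 group means, 17 residual degrees of freedom), with Benjamini-Hochberg adjustment over those genes and a threshold of FDR 0.05. The standard error of a log2 fold change is its size over the square root of F. CPM use TMM library sizes. There were 9 comparisons between groups and 3 differences of diet effects. Alternatives were other scalings, no filter, DESeq2 1.42.0, limma 3.58.1 on the log2 values, the compared groups alone, libraries thinned to the smallest, FDR 0.01 and each library left out. A run of the fit on simulated data, with far fewer changed genes than here, is not reported, and no result rests on it. Library totals of 7114454 to 30205070 counts limit the precision of genes near 1 CPM.

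The genes and lists were chosen with earlier results of these data known. By rule, values by library could be given for Psmb5 to Psmb10, Psme1 and the gene with the smallest FDR of each role in 3 comparisons. Library values in every group were given for Psmb8, Psmb9 and Psmb10. The others were given by library in some groups, or as means or ranges. Outside that rule, Psmb3 and Psmd8 by library, and Pomp, Nfe2l1 and B2m, were chosen after their values were seen. The other list genes named were among the 6 of their list with the smallest FDR in dKO_chow against WT_chow. Some genes of these lists are counted but not reported by name here.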

Additional observations from a re-analysis of the deposited data

Results flagged for a closer look

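In 9 of 110 groups of 4 libraries tested over 22 genes, 1 library lay far from the rest, and chance alone sets a library apart in about 1 of 20 groups. Replicate 4 of dKO_HFD stood apart for Psmb10 (33.1 CPM), Psmd1 (112.6 CPM) and Psme1 (41.2 CPM), in each gene towards the dKO_chow level. The same library stood apart on the first principal component, at 43.1, and held 214.5 CPM of summed leukocyte markers and 63.5 CPM of neutrophil markers, the highest of its group. The others were Psma7 in dKO_HFD replicate 2 (93.3 CPM), Psma8 in dKO_HFD replicate 3 (1.49 CPM), Psmb10 in WT_chow replicate 2 (35.0 CPM), and Psmb7 in dKO_chow replicate 3 (67.5 CPM), WT_HFD replicate 2 (97.8 CPM) and WT_chow replicate 4 (99.9 CPM).

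The diet effect of 13 of those 22 genes differed between the libraries labelled dKO and wild type, where 25.2% of all tested genes were called, and that of 6 between the libraries labelled dKO and the IL-4 knockout, where 24.4% were, by a quasi-likelihood test of the difference itself in edgeR (Benjamini-Hochberg FDR over every tested gene). Between the libraries labelled dKO and wild type, the difference of log2 fold changes was -0.83 for Psmb8 (FDR 0.0126) and -0.90 for Psmb9 (FDR 0.0333). In the other direction it was 0.75 for Psmd9 (FDR 0.00511), 0.41 for Psmb7 (FDR 0.00855), 0.39 for Psmc2 (FDR 0.00752) and for Psmd14 (FDR 0.0156), 0.38 for Psmg1 (FDR 0.0203) and 0.37 for Psme4 (FDR 0.0121). It was 0.36 for Psmf1 (FDR 0.00676), 0.31 for Psma6 (FDR 0.031), Psmc6 (FDR 0.0216) and Psmd1 (FDR 0.0301), and 0.26 for Psma7 (FDR 0.0342). Between the libraries labelled dKO and the IL-4 knockout it was 0.54 for Psmd9 (FDR 0.0322), 0.41 for Psmd14 (FDR 0.0137), 0.39 for Psmb7 (FDR 0.0132), 0.36 for Psmd1 (FDR 0.0176) and for Psme4 (FDR 0.0164), and 0.28 for Psmc6 (FDR 0.0387). The 22 genes were partly chosen by smallest FDR in other comparisons of the same libraries, so nothing is read from these shares. Against wild type, Psma6 lost its call under 10 alternatives, Psma7 under 9, Psmb9 and Psmd1 under 8 each, Psmg1 under 3, Psmc6 and Psmd14 under 2 each and Psmc2 under 1. Against the IL-4 knockout, Psmc6 lost its call under 13 (FDR 0.0557 to 0.146), Psmd9 under 11 (FDR 0.0544 to 0.141), Psmd1 under 5, Psmd14 under 2 and Psme4 under 1.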

How the results depend on the processing

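The number of proteasome genes called in dKO_chow against WT_chow was 35 and stayed between 32 and 37 under every alternative run. The diet effect in IL4KO minus that in WT gave 0 calls under every alternative run. In the other comparisons counts moved by over 1.5 times, and the cause was not tested. For dKO_chow against IL4KO_chow (29) they were 19 at FDR 0.01, 18 with upper quartile scaling, 17 with limma on the deposited log2 values, and 23 to 26 with 1 library left out. For dKO_HFD against dKO_chow (24) they were 14 at FDR 0.01, 15 with limma, 16 with upper quartile scaling, and 14 to 29 with 1 library left out. For WT_HFD against WT_chow (9) they were 1 at FDR 0.01, 4 with no filter or with thinned libraries, and 3 to 9 with 1 library left out. For IL4KO_HFD against IL4KO_chow (2) they were 1 at FDR 0.01, with no filter or with thinned libraries, 0 with only the compared groups, and 0 to 2 with 1 library left out. For dKO_HFD against WT_HFD (6) they were 2 at FDR 0.01 and 4 to 9 with 1 library left out. For IL4KO_chow against WT_chow (3) they were 1 at FDR 0.01, 5 with upper quartile scaling, and 2 to 5 with 1 library left out. For dKO_HFD against IL4KO_HFD (1) they were 0 at FDR 0.01, with upper quartile scaling, no filter, limma, only the compared groups or thinned libraries, and 0 to 2 with 1 library left out. For IL4KO_HFD against WT_HFD (0) they were 0 to 2 with 1 library left out. For the diet effect in dKO minus that in WT (24) they were 5 at FDR 0.01, 14 with upper quartile scaling or thinned libraries, 10 with limma, and 15 to 31 with 1 library left out. For the diet effect in dKO minus that in IL4KO (7) they were 0 at FDR 0.01, 4 with upper quartile scaling, 3 with limma, only the compared groups or thinned libraries, and 2 to 13 with 1 library left out.

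Upper quartile scaling and limma raised the share of higher calls to 33.3% and 35.3% in dKO_chow against IL4KO_chow (20.7% in the edgeR fit), and lowered it to 62.5% and 66.7% in dKO_HFD against dKO_chow (79.2%) and to 64.3% and 60.0% in the diet effect in dKO minus that in WT (87.5%). In the diet effect in dKO minus that in IL4KO it was 75.0% and 66.7%, where every edgeR call was higher. The median of all tested genes moved alike under both alternatives (0.097 and 0.081 in dKO_chow against IL4KO_chow, 0.008 in the edgeR fit). They may therefore not be separate checks. Over 99 pairs of a named gene and a comparison, 1540 alternatives gave 1366 values with the same direction and call, 162 that lost the call, 6 that gained one and 6 that changed sign. Those that changed sign were near 0 and not called: Psmb10 in dKO_HFD against IL4KO_HFD (-0.01, and -0.33 to 0.119 with 1 library left out), Psmb9 in the same comparison (-0.13, and -0.29 to 0.088) and Psmb8 in WT_HFD against WT_chow (0.088, and -0.012 to 0.184). Depth limits Psma8 and Psme2, near 1 CPM. No paired analysis was possible because replicate numbers were given in accession order and pair no mice.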
